A study of Drosophila melanogaster with 3 samples.

Results

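Distal intergenic peaks are regions of CG10543-eGFP signal between genes and away from start sites, some of them close to the 3' end of a gene. They were the peaks of the optimal irreproducible discovery rate (IDR) set whose summit was more than 1000 bp from every annotated transcription start site (TSS) and at a base that no annotated transcript covers, with transposable elements left out of the annotation. On the dm6 assembly, 500 of the 7545 IDR peaks met this rule, 6.63% (95% Clopper-Pearson interval 6.08 to 7.21%). The rule uses the position of a summit and no signal value. One of the 500 summits, at chromosome 3R position 7090489 near e(y)2b, lies inside an annotated transposable element.

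The chromatin came from whole Drosophila melanogaster embryos of mixed sex, collected over 0 to 24 h, in 3 biological replicates that form 1 group. All 3 replicates carry the same allele, a stable transgene that joins GFP to the C-terminus of CG10543, and no other genotype, treatment or age was compared. Sonicated fragments of 200 to 800 bp were precipitated with an antibody against GFP, and each list was called against 1 control alignment. A sample without the tag was not analysed here, so binding of CG10543 and signal that arises without it cannot be told apart. Whole embryos mix all cell types of all stages. Read counts are not part of the lists and the depth of sequencing is unknown, and the intervals given for shares cover counting error only.

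In chromatin immunoprecipitation sequencing (ChIP-seq), a summit is the base where precipitated fragments pile up highest, and IDR keeps regions whose order by strength repeats between replicates. Intergenic DNA far from start sites holds enhancers, which switch genes on in given cells and stages, and also insulators, silencers such as Polycomb response elements, and start sites of unannotated transcripts. In flies such elements often lie in long gene-poor stretches around genes of developmental regulators, and one gene may be served by many of them. Binding at a distal site does not show which gene, if any, the site serves, so the genes named here are the nearest ones and no more.

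The strongest distal intergenic peaks differed widely in base composition, which 9 of them show. These are the 9 best ranked over the replicates for which sequence is printed, each given as 151 bases around the summit on the plus strand of Release 6 (RefSeq), with the summit at the middle base. Capitals mark the letters of the 18 6-mers that were more frequent at distal intergenic summits than beside them, as described further on. The windows lay at chr3R:12403069-12403219 (DNAlig3), chr2L:1643437-1643587 (chinmo), chr2L:12012243-12012393 (Rh5, downstream) and chr3R:16207271-16207421 (mtSSB). The others lay at chr2L:12003210-12003360 (Hacd1), chr2L:12005664-12005814 (Rh5, upstream), chr3L:8696605-8696755 (hry), chr3L:17949253-17949403 (Eip75B) and chr3R:8355662-8355812 (stck).
DNAlig3 peak: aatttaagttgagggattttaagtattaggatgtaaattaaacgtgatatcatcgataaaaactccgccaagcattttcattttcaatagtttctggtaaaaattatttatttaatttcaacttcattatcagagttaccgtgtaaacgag
chinmo peak: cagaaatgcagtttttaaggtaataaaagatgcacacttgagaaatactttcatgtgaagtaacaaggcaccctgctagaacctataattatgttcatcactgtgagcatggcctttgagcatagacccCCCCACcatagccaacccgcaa
Rh5 downstream peak: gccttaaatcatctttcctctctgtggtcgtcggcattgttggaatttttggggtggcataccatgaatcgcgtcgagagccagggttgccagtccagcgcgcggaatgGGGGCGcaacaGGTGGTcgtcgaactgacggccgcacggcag
mtSSB peak: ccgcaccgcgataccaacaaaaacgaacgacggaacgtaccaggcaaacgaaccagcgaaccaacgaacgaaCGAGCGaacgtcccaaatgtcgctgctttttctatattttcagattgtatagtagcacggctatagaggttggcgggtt
Hacd1 peak: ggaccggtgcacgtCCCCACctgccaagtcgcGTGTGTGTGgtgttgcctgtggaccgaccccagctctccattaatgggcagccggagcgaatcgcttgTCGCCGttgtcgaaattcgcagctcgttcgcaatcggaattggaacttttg
Rh5 upstream peak: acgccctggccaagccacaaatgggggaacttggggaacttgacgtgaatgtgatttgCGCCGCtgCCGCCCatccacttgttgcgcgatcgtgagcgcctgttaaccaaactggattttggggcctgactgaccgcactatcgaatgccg
hry peak: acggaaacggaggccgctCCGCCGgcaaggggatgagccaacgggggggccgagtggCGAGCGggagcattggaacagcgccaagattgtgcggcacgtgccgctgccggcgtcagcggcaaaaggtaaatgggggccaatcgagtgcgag
Eip75B peak: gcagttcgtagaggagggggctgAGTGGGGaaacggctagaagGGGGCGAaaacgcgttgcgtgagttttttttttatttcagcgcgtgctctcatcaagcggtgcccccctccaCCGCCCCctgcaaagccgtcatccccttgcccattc
stck peak: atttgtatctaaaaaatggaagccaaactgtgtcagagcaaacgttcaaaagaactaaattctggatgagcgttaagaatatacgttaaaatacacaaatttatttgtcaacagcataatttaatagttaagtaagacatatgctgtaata
The DNAlig3 and stck windows were 27.8% and 28.5% G or C and held none of the 18 6-mers. The hry window was 67.5% G or C and held 2 of them, and the Eip75B window, at 58.9%, held 5. Among these 5, CCGCCC is the GC box (GGGCGG) read on the other strand.

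The strongest distal intergenic peak lay between the convergent genes RYBP, which encodes a partner of Polycomb group proteins, and Ppa, which encodes an F-box protein. Its summit was at 22678324 on chromosome 2R (interval 22677966 to 22678668), 5112 bp from RYBP and 6631 bp from Ppa. It ranked 7 in replicate 1, 15 in replicate 2 and 7 in replicate 3 among the 30000 regions that each replicate list holds (1 is the strongest), and 11 in the IDR set. Its mean rank was 9.67 ± 4.62 (SD, n = 3), and the next best among distal intergenic peaks was 36.7 ± 30.7 (SD, n = 3).

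The second strongest peak sat in a gap of 437 bp between the 3' ends of Sol1 and Cyp9f2, a cytochrome P450 gene, on 3R (12402947 to 12403318). The nearest start site, 1305 bp away, is that of the DNA ligase gene DNAlig3. Its ranks were 72, 22 and 16 in replicates 1, 2 and 3. A similar place between 3' ends was held by the peak between CycB, a mitotic cyclin gene, and blw, which encodes a subunit of ATP synthase (2R, 22802746 to 22803156), with ranks of 116, 72 and 101. The third peak by mean rank lay 7746 bp upstream of chinmo (2L, 1643206 to 1643984), a gene for a BTB zinc-finger protein that sets neuronal identity in time. It ranked 68, 90 and 50.

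Some strong peaks ranked far higher in replicate 1 than in replicates 2 and 3. The peak 1019 bp upstream of Hacd1, a gene of fatty acid elongation (2L, 12002871 to 12005188), ranked 6, 347 and 148. The peak 2096 bp upstream of mtSSB, which encodes the mitochondrial single-stranded DNA binding protein (3R, 16206924 to 16207680), ranked 17, 171 and 218. The peak 2486 bp downstream of Rh5, an opsin gene of photoreceptors (2L, 12010023 to 12012669), ranked 29, 114 and 147. The opposite order was seen near the pair-rule repressor gene hry (3L, 8696424 to 8696895), 17427 bp from its 3' end, where the ranks were 447, 306 and 186. The peak 1625 bp beyond the end of Eip75B, an ecdysone-induced nuclear receptor gene (3L, 17949106 to 17949492), ranked 479, 229 and 235. The peak 1241 bp upstream of stck, which encodes a protein of integrin adhesions (3R, 8355575 to 8355963), ranked 276, 377 and 385, so these replicates lay close together.

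**Figure D1:**
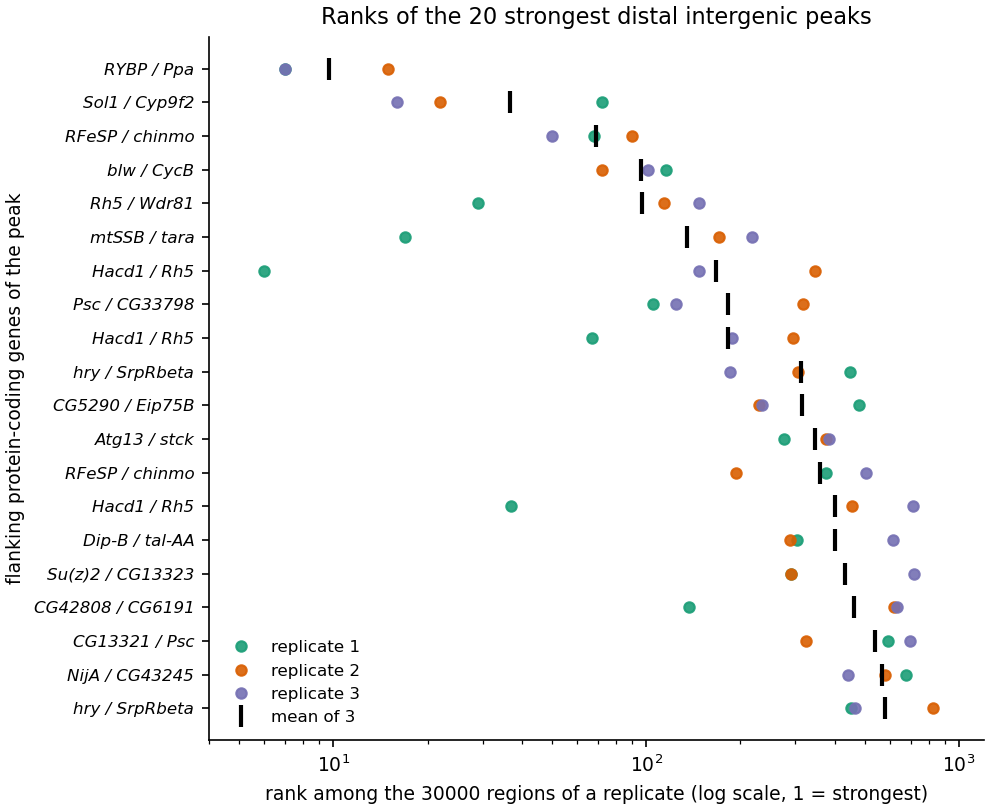
Rank of the 20 strongest distal intergenic peaks in each of the 3 replicates (coloured points, log axis, 1 is the strongest of 30000 regions) with the mean over the 3 (black bar), each peak labelled by the protein-coding genes on its left and right. The peak between RYBP and Ppa stands first, with ranks of 7 (replicates 1 and 3, points overlapping) and 15, and no point lies beyond rank 826.

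The 20 peaks with the best mean rank were all matched in the 3 replicates, which is how they were chosen, and their worst rank in any replicate was 826. Of these, 8 lay between convergent genes, 8 between divergent genes and 4 between genes in tandem, and 17 shared their transcript-free stretch with at least 1 other distal intergenic peak. The GC content of the 201 bp around their summits ran from 29.9 to 66.2%, with 5 peaks under 36% and 10 over 50%. The other peaks among the 20 lay near CG33798, tal-1A (a gene of small peptides in leg development), CG13323, CG42808, CG13321, CG43245 and SrpRbeta, a subunit of the signal recognition particle receptor, with further summits near Rh5, Hacd1 and chinmo. The Hacd1 summits at 12003285 and 12003487 share the same peak interval. The nearest start site of any gene belonged to a noncoding gene for 10 of the 20.

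Over all 500, signal was lower than over the rest of the IDR set, and close to that of intronic peaks also more than 1000 bp from every start site. Signal values of the members ran from 206 to 3927 with a median of 297. The median percentile of pooled signal within the IDR set (100 is the strongest) was 42.0 for distal intergenic peaks, 43.4 for the 2001 distal intronic peaks and 55.0 for the 4129 peaks within 500 bp of a TSS. Against all other IDR peaks together the difference was -8.49 percentile points. In the replicates the median percentile was 46.5 for distal intergenic peaks and 50.3 for the others in replicate 1, 43.0 and 50.5 in replicate 2, and 39.4 and 50.8 in replicate 3. Distal intergenic peaks were lower in 3 of 3 replicates, by a mean of -7.60 ± 3.79 percentile points (SD, n = 3; two-sided exact permutation test over replicates, p = 0.25, the smallest that 3 replicates allow). Against distal intronic peaks the differences were 0.684, -2.46 and -1.93, a mean of -1.24 ± 1.68 (SD, n = 3; two-sided exact permutation test, p = 0.5), which is within the spread between replicates. Of the 100 strongest IDR peaks 7 were distal intergenic, of the 500 strongest 20, and of the 1000 strongest 51.

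Distal intergenic sequence was more common further down each list. Among the 3000 strongest pooled regions 5.43% lay there, and among the 3000 weakest 17.6%. The corresponding shares were 6.1% and 15.5% in replicate 1, 5.67% and 18.3% in replicate 2, and 4.93% and 20.6% in replicate 3. Of the 3834 pooled regions in distal intergenic sequence, 672 overlapped an IDR peak, 17.5% (95% Clopper-Pearson interval 16.3 to 18.8%), against 33.2% of all 30000 pooled regions. The 3162 that overlapped none are called weaker regions here and serve as a background for position and sequence. Among the 7545 strongest regions of a replicate, as many as there are IDR peaks, the share of the class was 6.63%, 7.26% and 6.32%, a mean of 6.74% ± 0.480 (SD, n = 3).

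**Figure D2:**
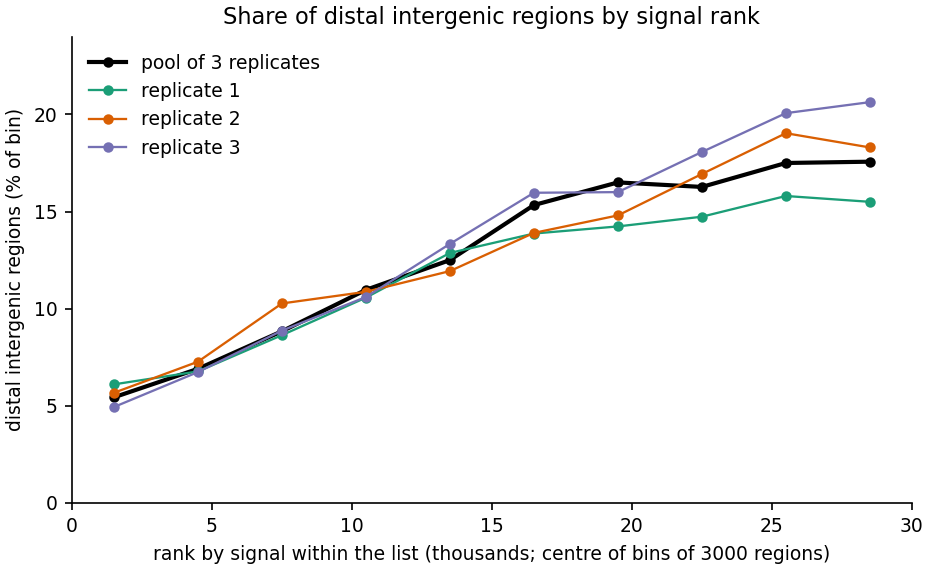
Share of distal intergenic regions (%, vertical axis) in bins of 3000 regions ordered by signal (horizontal axis, strongest at left) in the pooled list (black) and the lists of the 3 replicates (colours). The share rises from 5.43% in the first bin of the pool to 17.6% in the last, and from 4.93 to 6.1% up to 15.5 to 20.6% in the replicates.

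The share of members found again in all 3 replicates was close to that of IDR peaks at large. A peak was called matched when a summit among the 7545 strongest regions of a replicate lay within 200 bp. This held for 382 of the 500 in replicate 1, 406 in replicate 2 and 388 in replicate 3 (76.4%, 81.2% and 77.6%). Of all IDR peaks 78.7%, 80.8% and 83.2% were matched, so the share of members was lower in replicates 1 and 3, by most in replicate 3. All 3 replicates matched 267, 53.4% (95% Clopper-Pearson interval 48.9 to 57.8%), against 55.9% of all IDR peaks. In the full lists of 30000 regions 458 were found in all 3 (91.6%, against 90.9% of all IDR peaks), and 27, 7 and 11 were missing from replicates 1, 2 and 3. A deposited q-value under 0.01 was reached by the nearest replicate region of 458 peaks in replicate 1, 375 in replicate 2 and 378 in replicate 3. These are 91.6%, 75% and 75.6% of the members, against 89.6%, 75.5% and 81.2% of all IDR peaks. Neighbouring summits can be matched to the same replicate region, with 12, 18 and 10 such cases in replicates 1, 2 and 3. The summit stood alone in its peak interval in 405 cases (81%, against 76.9% of all IDR peaks). No member shared the 51 bases around its summit with another place on the 6 arms searched.

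Distal intergenic peaks lay nearer to start sites than the sequence open to them. The distance to the nearest TSS ran from 1002 to 34534 bp with a median of 2999 bp, against 3837 bp for weaker regions. Between 1 and 2 kb from a TSS lay 159 peaks (31.8%), 23.8% of weaker regions and 13.6% of eligible sequence, which is all sequence that meets the rule. Over 20 kb away lay 10 peaks (2%), 3.57% of weaker regions and 16.8% of eligible sequence. The 18 members in the first 100 bp beyond the limit of 1000 bp had a median percentile of 58.6, and the 22 intergenic summits in the last 100 bp before it, which are not members, had 44.5. The nearest start site was that of a protein-coding gene for 305 peaks (61%), of a noncoding RNA gene for 184 (36.8%, and 30.8% of weaker regions) and of a transfer RNA gene for 10.

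Peaks close to the 3' ends of genes made up a larger share of the members than of weaker regions. Within 500 bp of the 3' end of a protein-coding transcript lay 64 of the 500, 12.8% (95% Clopper-Pearson interval 9.999 to 16.0%), against 5.50% of weaker regions and 3.77% of eligible sequence. The difference from weaker regions narrowed with distance. Within 1000 bp lay 17.4% of members and 11.8% of weaker regions, and within 2000 bp 25% and 21.1%. Convergent protein-coding genes flanked 139 peaks (27.8%), 22.0% of weaker regions and 22.8% of eligible sequence. Divergent genes flanked 153 peaks (30.6%), 29.8% of weaker regions and 22.3% of eligible sequence. Genes in tandem flanked 208 peaks (41.6%), 48.2% of weaker regions and 49.4% of eligible sequence. These shares were not tested, since neighbouring peaks share their genes.

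**Figure D3:**
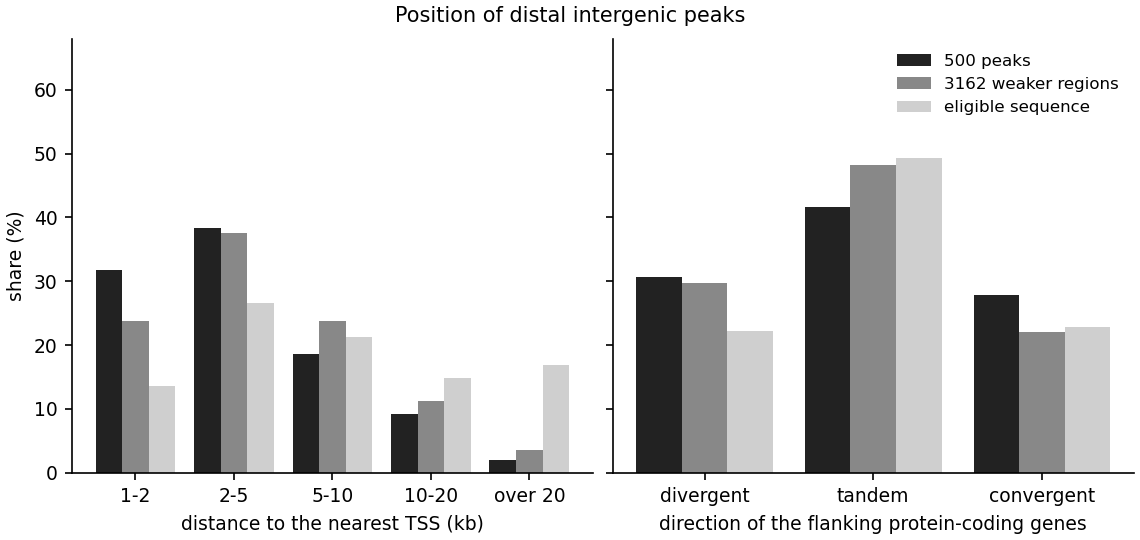
Left, share (%) of the 500 distal intergenic peaks (black), 3162 weaker distal intergenic regions (grey) and eligible sequence (light grey) by distance to the nearest TSS in kb; right, the same by the direction of the flanking protein-coding genes. Peaks take 31.8% of their number from 1 to 2 kb, where 13.6% of eligible sequence lies, and sequence at the ends of arms is not drawn.

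Per Mb of eligible sequence the arms differed by less than a factor of 2. Over all arms there were 14.9 peaks per Mb (exact Poisson 95% interval 13.6 to 16.2) in 33.6 Mb, which is 25.1% of the arms. The rest of the arms held 70.3 other IDR peaks per Mb. The highest density of distal intergenic peaks was on 3L with 166 peaks, 19.6 per Mb (16.7 to 22.8), and the lowest on X with 51 peaks, 10.4 per Mb (7.76 to 13.7). Between them lay 2L with 15.9 (97 peaks), 3R with 15.4 (108 peaks) and 2R with 10.8 (75 peaks). Chromosome 4 had 3 peaks at 13.8 per Mb (2.84 to 40.3). Embryos of mixed sex carry fewer copies of X than of the autosomes, and the part of this in the value for X was not tested. Counting only peaks that both other replicates matched, the density over all arms was 10.2 without replicate 1, 8.86 without replicate 2 and 9.04 without replicate 3.

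Of the 500 peaks, 58% shared a stretch between genes with at least 1 other. The 500 summits fell into 304 stretches without any annotated transcript. In 210 of these there was 1 peak, and the other 94 held 290 peaks, 58% of all. The same count was not made for weaker regions or other IDR peaks. Another IDR summit lay within 1 kb of 31.2% of the members, against 36.7% of all IDR peaks. In some stretches with 2 peaks the summits were close together, as near bin, where they lay 200 bp apart. The 14 stretches with 5 or more peaks held 93 (18.6%). The most peaks, 11, lay in a stretch of 75047 bp on 3L between NijA, which encodes a ninjurin, and CG43245. They spanned 32396 bp, and 8 of them were matched in all 3 replicates. Their best member in the IDR set, at 10752772, had 20.9% GC and ranked 1405, 279 and 411 in the replicates. The next, at 10740072, had 46.3% GC and ranked 675, 580 and 443. The third, at 10737391, ranked 664, 1237 and 590.

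Upstream of chinmo, 9 peaks lay in 20910 bp between it and RFeSP, which encodes the Rieske iron-sulphur protein of the respiratory chain. Of the 9 peaks to which chinmo is the nearest gene, 2 in a further stretch closer to it, 7 were matched. Besides the strongest one, whose sequence is given above, the peak at 1632849 ranked 375, 194 and 506 and the peak at 1638822 ranked 1686, 799 and 2499. Between hry and SrpRbeta, 9 peaks lay in a stretch of 25757 bp, within 15089 bp of each other, and 8 were matched. A further 4 lay in a stretch of 13449 bp closer to hry, of which 1 was matched. In the longer stretch, the peak at 8698021 ranked 1388, 1736 and 1797, and the one at 8700534 ranked 450, 826 and 466. Ranks at 8705098 were further apart, 498, 1292 and 4210.

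**Figure D4:**
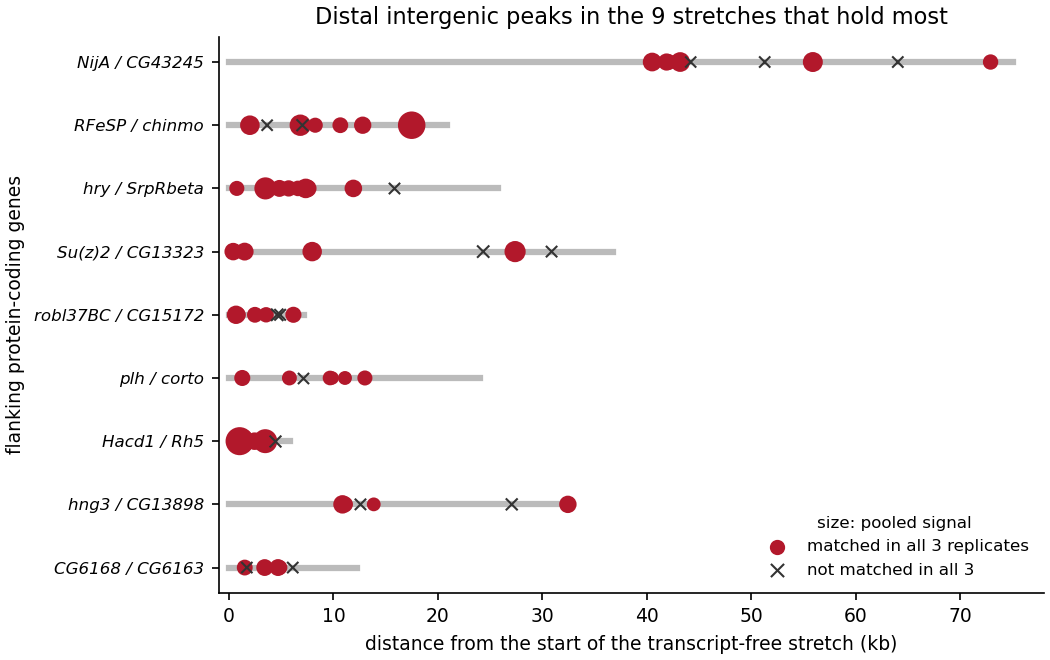
The 9 transcript-free stretches with most distal intergenic peaks, each drawn as a grey line from its start (horizontal axis, kb) and labelled by the protein-coding genes on its sides. Circles are peaks matched in all 3 replicates, crosses are peaks that were not, and larger marks stand for higher pooled signal. The 11 peaks between NijA and CG43245 begin about 40 kb into their stretch, and the 6 between Hacd1 and Rh5 lie in a stretch of 5886 bp.

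The neighbourhoods of Rh5 and of Psc were singled out after their values were seen. Around Hacd1, Rh5 and Wdr81 on 2L, 10 of the 11 IDR summits within 9033 bp were distal intergenic, and 8 of the 10 were matched in all 3 replicates. They are not all separate regions, since 4 of the summits share the peak interval 12010023 to 12012669. Those at 12010323 and 12010530 were matched to the same region of replicate 3 (rank 707). Of the 10, the peak 2414 bp upstream of Rh5 (12005353 to 12006359) ranked 67, 294 and 188. The one at 12010323, beyond the 3' end of Rh5, ranked 96, 1558 and 707. The summit at 12011274 went the other way, with 8363 in replicate 1 and 121 and 531 in replicates 2 and 3. Around Psc and Su(z)2 on 2R, a pair of related genes for proteins of Polycomb repressive complex 1, 14 of the 30 IDR summits within 80653 bp were distal intergenic and 11 were matched. The peak 10003 bp from Psc at 12990997 ranked 105, 317 and 125. The peak 7965 bp from Su(z)2 at 13015876 ranked 267, 922 and 1027.

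By nearest start site, 311 of the 13945 protein-coding genes had a distal intergenic peak, 2.23%. Of the 1446 genes nearest to any pooled distal intergenic region they were 21.5%. One peak belonged to 221 of the genes, and 5 or more to 14. The genes with most peaks were CG43245 with 11, chinmo with 9, hry and CG13898 with 8 each, and Rh5, CG6163 and corto with 7 each, followed by SrpRbeta, Reg-2 and CG4218 with 6 each. For corto, a gene of a chromatin protein that works with Polycomb and Trithorax group proteins, 6 of the 7 were matched, and their IDR ranks ran from 2018 to 6921 with a median of 3573. For hry the IDR ranks ran from 252 to 7076 with a median of 3063, and for Rh5 from 62 to 5210 with a median of 516. Counting only peaks that both other replicates matched, the share of genes was 1.599% without replicate 1, 1.33% without replicate 2 and 1.41% without replicate 3. The nearest protein-coding gene also had an IDR peak within 500 bp of a TSS for 209 peaks (41.8%), and the same held for 26.8% of weaker regions. Counted by gene these were 123 of the 311 (39.5%), against 27.9% of all protein-coding genes.

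The 18 gene lists, of regulators, signalling pathways and other families, held 482 genes, of which 42 were nearest to a distal intergenic peak. These 42 took 66 peaks, 13.2% of the members and also 13.2% of weaker regions. So the lists as a whole made up no more of the peaks than of the background. Over all protein-coding genes the share with a peak was 2.23%, and over those nearest to any pooled distal intergenic region 21.5%. Among list genes nearest to such a region it ran from 0 of 2 heat shock and chaperone genes to 2 of 2 Polycomb and Trithorax group genes. Between these lay 2 of 14 dorsoventral genes and 5 of 9 Notch and EGF receptor pathway genes. Pair-rule genes, which divide the embryo into segments, had 3 of 11: hry with 8 peaks, slp2 and odd with 1 each. The slp2 peak, 4361 bp from its TSS, ranked 2437, 988 and 1722, and the odd peak 9545, 6139 and 2789. Gap and maternal genes had 2 of 13, ems and bcd, both with IDR ranks beyond 5000 and neither matched. Of the 8 Hox genes Ubx alone was the nearest gene to a peak, which ranked 9156, 5133 and 8278. Counting either flanking gene, 2 of the 8 had a peak. Between Glut3 and abd-A lay 2 peaks, nearest to Glut3, the better of them at rank 1593 in the IDR set.

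Among signalling genes, 5 of 23 Notch and EGF receptor pathway genes and 4 of 22 segment polarity, Wnt and Hedgehog genes had a peak. Between E(spl)mgamma-HLH and E(spl)mbeta-HLH, repressor genes that respond to Notch, a pair of summits lay 199 bp apart. The first ranked 680, 4816 and 4149 and the second 921, 4427 and 8785, so both stood higher in replicate 1. Peaks were also nearest to sty, which encodes the inhibitor Sprouty (3372, 5966 and 4464), and to Ser, which encodes a Notch ligand (7068, 5502 and 6225). The Wnt receptor gene fz had 2 peaks, the stronger of which ranked 2699, 2171 and 2510, and the Hedgehog receptor gene ptc had 1, which ranked 3467, 2463 and 4001. The peaks of mid and en were not matched.

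Among transcription factor genes the GATA, forkhead and endoderm list had 4 of 21, with 7 peaks. These include slp2, also counted above with the pair-rule genes. The forkhead gene bin, a regulator of visceral mesoderm, had 2 peaks 1448 and 1248 bp from its TSS. The first ranked 1200, 465 and 745 and the second 1877, 751 and 2189. For foxo, the effector of insulin signalling, the strongest of 3 peaks ranked 2578, 830 and 895. The fkh peak ranked 6227, 5882 and 4523. The list of homeobox genes outside the Hox and segmentation lists had 6 of 55, among them ems, also counted above with the gap and maternal genes. The best of these was a peak 3895 bp from zfh2 on chromosome 4, at 542, 543 and 694. The POU gene vvl had 3 matched peaks up to 34074 bp away, the best at 5084, 1033 and 2173, and mirr had 2 that were not matched.

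Of 21 nuclear receptor genes only Eip75B was the nearest gene to peaks, 3 in number, and the second of these ranked 837, 990 and 1448. The Sox gene D (Dichaete), in the HMG-box list (2 of 15) and the neuroblast list (2 of 27), had a peak at 6084, 1669 and 2060, and klu, a zinc-finger gene, had one at 4877, 4716 and 2636. The HMG-box gene tHMG2 had one at 2992, 2632 and 2091. Of 28 Polycomb and Trithorax group genes, Su(z)2 and ph-d were nearest to peaks, and 4 of the 28 flanked a peak. Of the 25 dorsoventral genes Doc2 and Dr did, the 3 of Doc2 unmatched. Muscle genes had 3 of 25 (Zasp52, Act57B and wupA), axon guidance genes 4 of 47 (comm2, Sema5c, 18w and Toll-6, with no peak matched), and Dpr and DIP genes 1 of 32 (DIP-delta). Neuronal RNA-binding and synaptic genes had 1 of 23 (Syt1), ribosomal protein genes 2 of 85 (RpS23 and RpS15Aa), and heat shock and chaperone genes 0 of 19. With so few genes in each list, none of these shares was tested.

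The DNA at distal intergenic summits was richer in G and C than the DNA beside it. The median GC content was 44.3% in the 201 bp around the summit and 40.05% in windows centred 500 bp away, and the summit was the richer in 320 of 500 peaks (64%). The same held for 64.6% of distal intronic peaks and 49.9% of peaks within 500 bp of a TSS. Weaker distal intergenic regions had a median of 44.8%. The rise was broad. In bins of 100 bp the mean GC content was 43.6% just before the summit, 43.9% just after it and 44.2% from 100 to 200 bp before it. It was 39.2% in both bins from 500 to 600 bp away.

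Of 40 motifs, 1 was more frequent at summits than in the flank and 0 were less frequent, by exact McNemar tests adjusted over the 40 by the Benjamini-Hochberg method. At an unadjusted p under 0.05 there were 7. Over all IDR peaks, a far larger set, 35% of the motifs were more and 27.5% less frequent. Motifs were sought on both strands in 485 pairs of windows of 201 bp, 1 around the summit and 1 centred 500 bp away, where overlapping summit windows were counted once. The motif called was the GC box (GGGCGG), which Sp and Krüppel-like factors bind. It was present in 61 summit windows (12.6%) and 25 flank windows (5.15%), odds of 2.71 (exact McNemar test, adjusted p = 0.00223). The 40 motifs were chosen with earlier results of these data known, which the adjustment over 40 does not cover. Among all 2080 6-mers, which were not chosen, the GC box had an adjusted p of 0.0164 (exact McNemar test). With the flank on the lower side, where 6.804% of flank windows held it, the call was lost (adjusted p = 0.0528, exact McNemar test). It was also lost among IDR peaks above the median signal, where 206 windows were left (11.2% and 4.37%, exact McNemar test, adjusted p = 0.251). A TSS distance over 2000 bp ended it too (12.3% and 6.01%, exact McNemar test, adjusted p = 0.219). Over peaks matched by the remaining replicates it was called without each replicate in turn, with adjusted p from 1.45e-05 to 0.00327 in exact McNemar tests.

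The GC box was as frequent at weaker regions of the same class. It was in 12.4% of all 500 summit windows, 12.1% of weaker distal intergenic regions, 10.2% of distal intronic peaks, 6.85% of peaks at a TSS and 8.71% of all IDR peaks. The GAGA site (GAGAG), bound by GAGA factor, was in 26.6% of summit and 18.8% of flank windows and did not pass (exact McNemar test, adjusted p = 0.055), nor did the CA repeat (CACACACA; 10.1% and 5.15%, adjusted p = 0.0654). Over all IDR peaks GAGAG was in 30.5% of summit windows and CACACACA in 9.17%. The homeodomain core (TAATTA), which many patterning factors bind, was in 11.1% of summits and 16.5% of flanks, and in 11.2% of all IDR summits. It had an adjusted p of 0.186 by the exact McNemar test. In the paired windows of all IDR peaks it was called less frequent at summits (11.3% and 13.2%, exact McNemar test, adjusted p = 0.00172). A pair of promoter elements was rare here and in the other regions far from a TSS. The DNA replication-related element (TATCGATA) was in 0 of 500 summit windows, which allows a share of up to 0.6% by the floor of 3 counts and 0.735% by the upper 95% Clopper-Pearson limit, against 4.09% of peaks at a TSS, 0.150% of distal intronic peaks and 0.253% of weaker regions. Motif 1 (GGTCACACT) was in 1 of 500 (0.2%), against 2.59% of peaks at a TSS, 0.04998% of distal intronic peaks and 0.0633% of weaker regions. Insulator motifs gave no call at distal intergenic summits. The CTCF core (AGNNGGCGC) was in 3.92% at summits, 1.65% beside them and 3.14% at all IDR summits, with an adjusted p of 0.261 (exact McNemar test). The Su(Hw) motif (TTGCATAC) was in 1.03%, 1.44% and 0.901%, with an adjusted p of 1 (exact McNemar test). Over all IDR peaks, with 7328 pairs of windows, the CTCF core was called more frequent at summits (3.17% and 1.95%, exact McNemar test, adjusted p = 1.29e-05). The Su(Hw) motif was not called there.

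**Figure D5:**
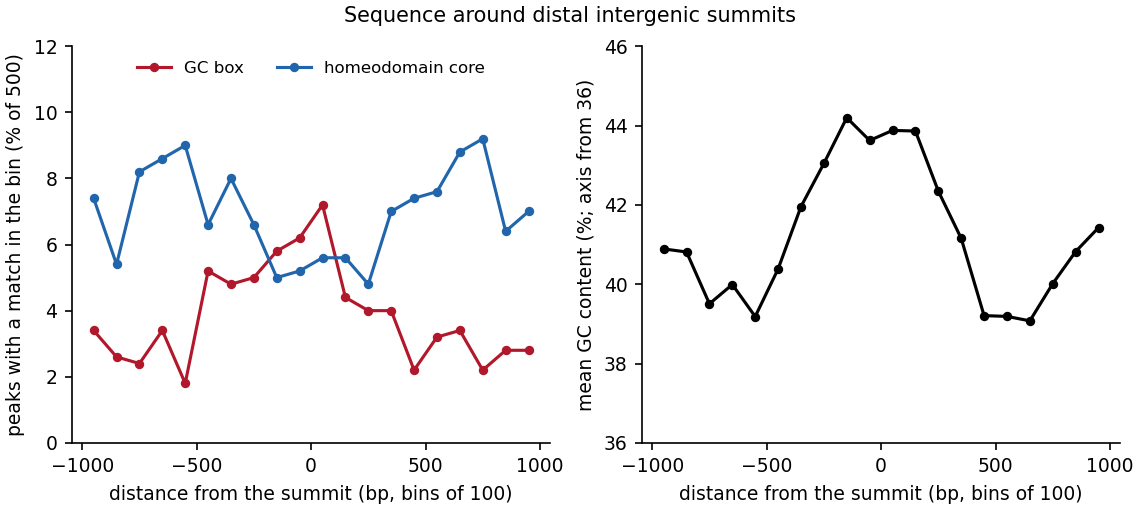
Left, share of the 500 distal intergenic peaks (%) with a match to the GC box (red) or the homeodomain core (blue) in bins of 100 bp by distance from the summit; right, mean GC content (%, axis from 36) in the same bins. The GC box is in 6.2% and 7.2% of the bins next to the summit and in 1.8% and 3.2% of the bins from 500 to 600 bp away, and GC content is 43.6% and 43.9% at the summit.

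Of all 2080 6-mers, counted with their reverse complements, 18 were more frequent at summits and 4 less frequent (exact McNemar tests, Benjamini-Hochberg adjustment over the 2080). Over all IDR peaks 24% were more and 23.7% less frequent, and 16 of the 18 and 3 of the 4 were called there in the same direction. The 5 with the largest odds were CGCTAG (5.77% of summit and 1.44% of flank windows, odds 4.5), ACGCCT (odds 4), GCGCTA (odds 3.78), GGGCGA (odds 3.73) and CGAGCG (11.8% and 3.92%, odds 3.38). In exact McNemar tests their adjusted p-values were 0.0397, 0.0496, 0.0253, 0.0164 and 0.00609. The smallest p belonged to CCCCAC, in 14.4% of summit and 5.36% of flank windows (odds 3.2, exact McNemar test, adjusted p = 0.0033). Of the 18, 15 had 4 or more G or C letters, and several overlap each other or the GC box, as CGCCCC and GGGCGA do. CCGCCC, also among the 18, is the GC box itself on the other strand, so its call repeats that of the motif. ACGCCT and GGGCGA were not called over all IDR peaks (exact McNemar tests, adjusted p = 0.545 and 0.0687).

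The 4 less frequent 6-mers had 2 or fewer G or C letters. They were AATTGC (10.5% and 19.4%, odds 0.488), AATGCA (10.5% and 19.8%, odds 0.494), CATTAA (12.2% and 20.8%, odds 0.533) and ATAAAA (27.8% and 39.2%, odds 0.610), and exact McNemar tests gave adjusted p-values of 0.024, 0.0206, 0.0468 and 0.0397. A summit window held a median of 2 of the 18 6-mers, as did weaker regions. None of the 18 was found in 83 peaks (16.6%), against 23.2% of weaker regions, and 71 peaks (14.2%) held 5 or more. The 18 were chosen for being frequent in windows of these same peaks, so the contrast with weaker regions is no separate evidence. The printed windows show both kinds, with 0 in the DNAlig3 and stck windows and 5 in the Eip75B window. The number of 6-mers called moved with the peaks used. With only peaks that both other replicates matched there were 1 more frequent and 0 less frequent 6-mers without replicate 1, 14 and 3 without replicate 2, and 6 and 1 without replicate 3, in 329, 286 and 291 pairs of windows. All 18 kept their direction in each of the 12 settings run, and 0 to 18 kept their call. Most of these settings reuse windows from which the 18 were chosen, which favours a kept direction.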

How the data were processed

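The authors deposited regions of anti-GFP ChIP-seq for 3 replicates, their pool and the IDR set on dm6, and per the file headers each was called against 1 control alignment. The signal value of a region and its −log10 q-value are the authors' own, and neither the aligner nor the peak caller is named in the sources used here. Signal served only to rank regions within a list. In the IDR set 85.2% of peaks share the highest −log10 q-value. The lists on dm3 were not used.

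Genes came from Ensembl release 115 (BDGP6) and sequence from RefSeq Release 6, both on dm6 coordinates, and every summit lay within the arm lengths. The motifs (40), the gene lists (18) and the members were chosen with earlier results of these data known. Of 491 list symbols, 482 matched a gene. The flank lay on the side of higher coordinates unless an IDR summit was within 200 bp of its centre. Named were the 20 members with the best mean rank, the 10 genes nearest to most members, up to 4 genes per list by signal, and, among those called, up to 5 motifs and 5 6-mers with the largest odds each way. Sequences are of the strongest named peaks outside arm 2R. Any further names were picked with their values in view. Tests used a threshold of 0.05 and compare windows within these 3 samples, not embryo collections. The McNemar test was checked on simulated windows with independent features, so the check does not cover 6-mers that overlap each other. Python 3.11.15, pandas 2.3.3, numpy 2.4.6, scipy 1.17.1 and matplotlib 3.10.9 were used.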

Additional observations from a re-analysis of the deposited data

How the results depend on the processing

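With a TSS distance over 500 bp, distal intergenic peaks were 8.85% of IDR peaks, 18.3 per Mb and nearest to 3.12% of genes, with 4 motifs and 82 6-mers more frequent at summits and 54 6-mers less frequent. Over 2000 bp these values were 4.52%, 11.7, 1.499%, 0, 2 and 0. With protein-coding genes only they were 9.76%, 19.4, 2.95%, 4, 138 and 95, and 4 motifs were less frequent. Among IDR peaks above the median signal they were 5.67%, 6.36, 1.025%, 0, 0 and 0, and 91.6% of peaks were matched. With 1 summit per interval the density was 13.3, 3 motifs were more and 2 6-mers less frequent. Masking transposable elements, an alternative chosen after seeing the data, gave 16.7 per Mb, since eligible sequence shrank.

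The share matched was 44.4% within 100 bp, 58% within 500 bp and 91.6% over all regions of each list. By q-value the difference in median percentile was 0, since most peaks share 1 value. Windows of 50 bp on each side gave 4 6-mers more and 0 less frequent. The flank on the other side gave 0 motifs more and 1 less frequent, and the flank 1000 bp away 4 and 2, with 8 6-mers less frequent. Without X and 4, 6 6-mers were more and 0 less frequent. Counting both flanking genes gave 3.83% of genes. Leaving out each replicate gave 59.6 to 68.4% matched, 8.86 to 10.2 peaks per Mb, 1.33 to 1.599% of genes, 1 to 2 motifs more frequent, 1 to 14 6-mers more and 0 to 3 less frequent. Peaks are fewer in the stricter sets and only 2 matches are asked without a replicate; other causes were not tested. No paired analysis was possible because there is only 1 group. Depth is unknown.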
